A study of Homo sapiens with 2 samples.

Results

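The genes described here are the switch that starts mitosis: the kinase CDK1, its cyclins CCNA2, CCNB1 and CCNB2, the phosphatases CDC25A, CDC25B and CDC25C, the inhibitory kinases WEE1 and PKMYT1, and the kinase PLK1. They were chosen by gene symbol, with earlier results of these data known, and all 10 are among the 39720 symbols of the deposited table. RNA was sequenced from A549, a human lung adenocarcinoma cell line, after infection with lentivirus for a control hairpin (shNC) or for a short hairpin RNA that targets DEPDC1B (shDEPDC1B). Both groups received 5 µg/mL polybrene and were harvested on day 2. Each group is 1 library, so no difference has a replicate check and the comparison is of 2 libraries and not of 2 conditions. The sources used here do not give the number of hairpins or their letters.

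CDK1 bound to a B-type cyclin is the kinase that drives a cell from G2 into mitosis. WEE1 and PKMYT1 hold the complex inactive by phosphorylating CDK1 in its ATP-binding loop, the CDC25 phosphatases take those phosphates off, and PLK1 helps CDC25C and marks WEE1 for destruction, so that the switch flips at once. Many of these transcripts are scarce in G1 and abundant in G2 and M, and their promoters are known for the cell cycle genes homology region (CHR), which the MuvB complex binds, and for CCAAT boxes, which NF-Y binds. DEPDC1B, the targeted gene, encodes a protein with DEP and RhoGAP-like domains.

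The promoter letters are shown first because they are what several of the genes share outside the counts. The windows run from 250 bases before to 50 after each RefSeq start (GRCh38.p14), where position 1 is the first transcribed base and there is no position 0. TTTGAA and TTCGAA were searched as the canonical CHR, CTTGAA and TTTAAA as variants of it, and CCAAT as the NF-Y box, on both strands; these words do not overlap one another in the windows, except that TTCGAA and TTTAAA are their own reverse complement and were counted once. For each gene the match nearest before a start on the gene's own strand is printed within 30 bases, 5′ to 3′ on that strand, with the match in capitals.

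CCNB2, chr15:59105105-59105134, plus strand: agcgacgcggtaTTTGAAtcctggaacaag

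PLK1, chr16:23678848-23678877, plus strand: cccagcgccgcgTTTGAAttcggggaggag

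CDC25C, chr5:138331817-138331846, minus strand: gctggcggaaggTTTGAAtggtcaacgcct

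CDK1, chr10:60778453-60778482, plus strand: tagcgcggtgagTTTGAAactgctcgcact

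CDC25B, chr20:3796260-3796289, plus strand: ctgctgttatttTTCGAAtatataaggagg

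CCNB1, chr5:69167108-69167137, plus strand: agcagtgcggggTTTAAAtctgaggctagg

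CCNA2, chr4:121823894-121823923, minus strand: agtcgcgggataCTTGAActgcaagaacag

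The canonical letters began 29 bases before the start in CCNB2 and PLK1, 30 before a start of CDC25C, 13 before a start of CDK1 and 38 before a start of CDC25B. CCNB1 and CCNA2 had a variant at 30 and 28 bases before the start. CDC25A had no CHR letters in its window. Its 120 bases before the start, shown because they hold NF-Y boxes alone, have these in capitals as ATTGG, the reverse complement.

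CDC25A, chr3:48188418-48188537, minus strand: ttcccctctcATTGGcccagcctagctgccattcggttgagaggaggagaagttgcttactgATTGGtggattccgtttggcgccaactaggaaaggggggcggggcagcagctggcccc

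A canonical CHR word within 100 bases before a start, on the gene's strand, was found in 5 of the 8 genes with a window, against 2.83% of all 35116 starts and 3.55% of 27305 genes. A variant word there was found in 3 of 8 (CCNA2, CCNB1 and PLK1), against 5.61% of starts and 6.91% of genes. A CCAAT word anywhere in a window, on either strand, was found in 8 of 8, against 34.6% of starts and 39.7% of genes. Within 100 bases before a start, on the gene's strand, it was found in 3 of 8, against 9.42% of starts and 11.5% of genes. By the wider rule a canonical CHR word was in 5 of 8, against 19.5% of genes, and a variant in 6 of 8, against 24.8%. The counts of 8 are of genes with a match at any start, so the shares of genes are the like measure. CDC25B and CDC25C have 4 RefSeq starts each and CDK1 has 2, which gives them more windows for a match. In CDC25B and CDC25C the letters stand at some of the starts, as the map of matches by distance from the start shows. These are matches of letters and do not show binding. Of the 285 assessed genes in all with a canonical CHR word within those 100 bases, 21.8% were at least 1.5-fold higher in shDEPDC1B, against 18.9% of the 10317 assessed genes with a window. The 285 include the 5 genes above, and their median log2 ratio was -0.001, against 0.04. With a canonical word anywhere in a window, on either strand, the share was 16.9%. With a variant word it was 17.4% by either rule.

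**Figure D1:**
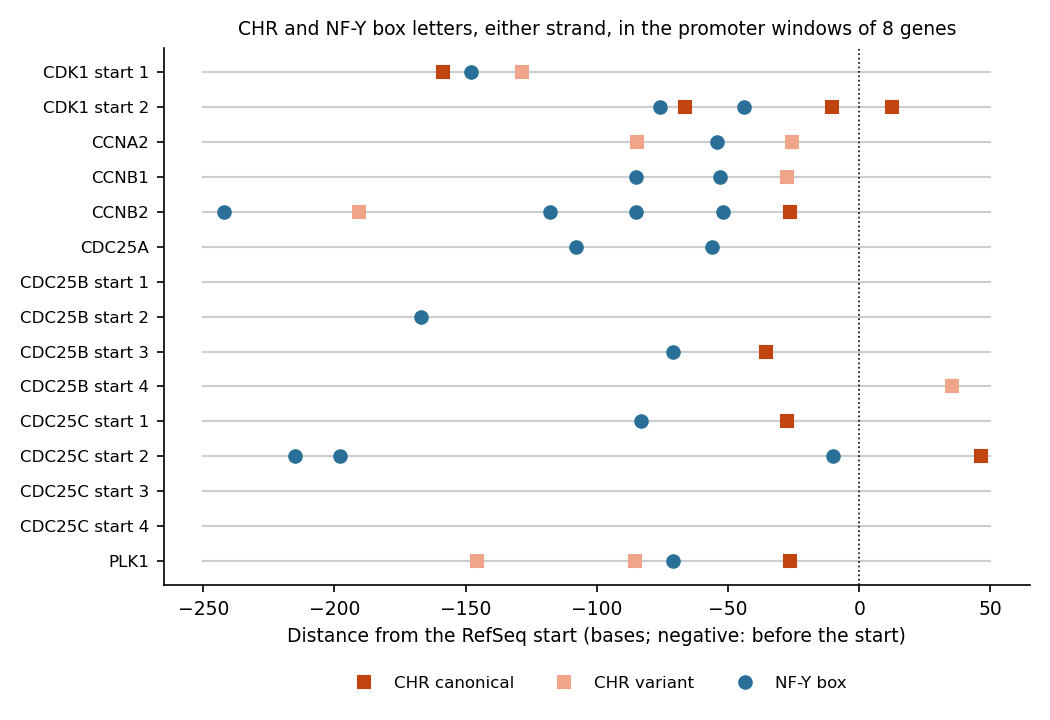
CHR words (squares, canonical dark and variant pale) and NF-Y box words (circles) on either strand, by distance in bases from each RefSeq start of 8 genes (horizontal lines, 1 per start). The CHR word nearest before the start stands between 23 and 30 bases from it in CCNB2, PLK1, CCNB1, CCNA2 and CDC25C start 1. CCNB2, PLK1 and CCNA2 hold further variant words upstream of it.

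All 10 genes were higher in the shDEPDC1B library than in the shNC library, each with a 95% interval that excludes equality, and 38.9% of the 13850 assessed genes were higher by that rule. At 1.5-fold or more were 8 of 10 (background 19.2%), at 2-fold or more 1 of 10, CDC25C (background 5.86%), and at least 1.5-fold lower none of 10 (background 19.6%). The median log2 ratio of the 10 was 0.76, against 0.04 over all assessed genes, and their percentiles among assessed genes ran from 74.8 (WEE1) to 96.4 (CDC25C). Activators and inhibitors of CDK1 were thus on the same side. In bulk RNA more cells of a type, such as cells in G2 or M, and more RNA per cell cannot be told apart. DEPDC1B had 329 and 39 counts, which leaves 12.5% [8.75, 17.5] of the shNC level in the library labelled shDEPDC1B.

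**Figure D2:**
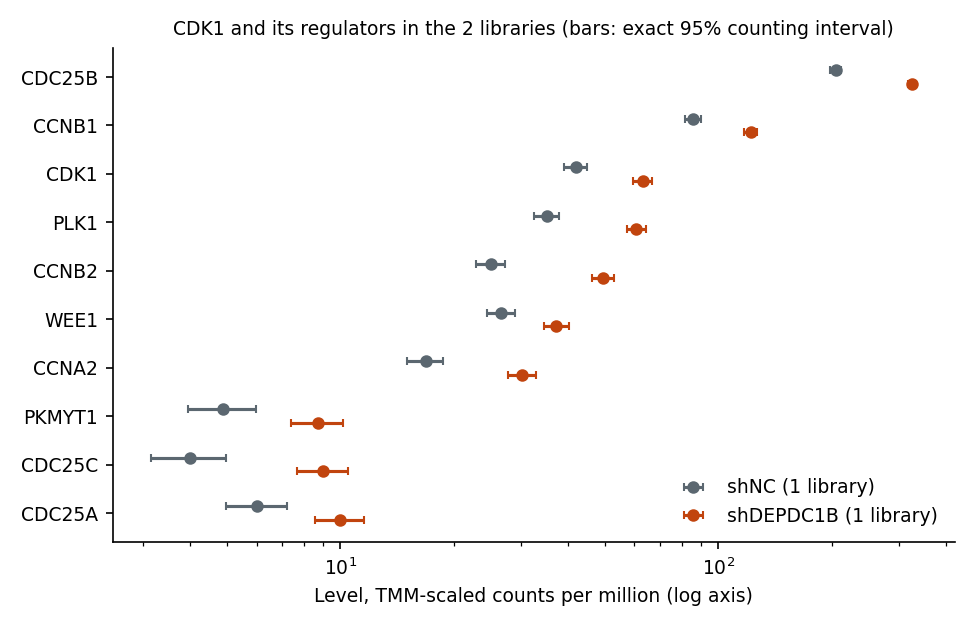
Level of each gene in TMM-scaled CPM (log axis) in the 1 shNC library (grey) and the 1 shDEPDC1B library (orange), with exact 95% counting intervals. The shDEPDC1B point is to the right of the shNC point for each of the 10 genes and no pair of intervals overlaps.

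CDK1 (chromosome 10, 60778331 to 60794852, plus strand, GRCh38 coordinates of GENCODE 29, as for the genes below) was counted 810 times in the shNC library and 1150 times in the shDEPDC1B library. As CPM, counts per 1000000 scaled counts, these are 42.0 and 63.0, a ratio of 1.5 [1.37, 1.64] with its exact 95% interval. This places CDK1 on the 1.5-fold threshold itself, just inside, with CCNB1 and WEE1 as the nearest genes outside it.

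Cyclin A2, CCNA2 (chromosome 4, 121816444 to 121823933, minus strand), which serves CDK2 in S phase and CDK1 in G2, had 324 and 552 counts (16.8 and 30.3 CPM), a ratio of 1.8 [1.57, 2.07]. Cyclin B1, CCNB1 (chromosome 5, 69167010 to 69178245, plus strand), the main mitotic cyclin, had 1658 and 2222 counts (86.0 and 121.8 CPM), a ratio of 1.42 [1.33, 1.51]. Cyclin B2, CCNB2 (chromosome 15, 59105078 to 59125045, plus strand), a B-type cyclin found at the Golgi, had 482 and 903 counts (25 and 49.5 CPM), a ratio of 1.98 [1.77, 2.22]. The 3 cyclins were therefore all higher, least for CCNB1, the most abundant of them. The intervals of CCNA2 and CCNB2 overlap, and these 2 were not set against each other. The ratio of CCNB2 to CCNB1 counts went from 0.29 in shNC to 0.41 in shDEPDC1B, 1.40 times as high [1.23, 1.59], a value in which library scaling plays no part. The ratio of CCNA2 to CCNB1 was 1.27 times as high [1.09, 1.48], and that of CDK1 to CCNB1 differed by less than counting error (1.06 [0.95, 1.18]). Per transcript length, CCNB2 made up 20.1% of the cyclin B level in shNC and 26.0% in shDEPDC1B.

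CDC25B (chromosome 20, 3786772 to 3806121, plus strand), the phosphatase that acts early on CDK1 at the centrosome, was the most abundant of the 10 genes. It had 3940 and 5952 counts, or 204.4 and 326.3 CPM, a ratio of 1.60 [1.53, 1.66]. CDC25A (chromosome 3, 48157146 to 48188402, minus strand), which acts at the G1 to S step as well and is destroyed after DNA damage, had 116 and 182 counts (6.02 and 9.98 CPM), a ratio of 1.66 [1.31, 2.11]. CDC25C (chromosome 5, 138285265 to 138338355, minus strand), the form that PLK1 and CDK1 itself activate at mitotic entry, had 77 and 164 counts (3.99 and 8.99 CPM), a ratio of 2.25 [1.71, 2.99]. CDC25C was thus the gene with the highest ratio, and in shNC the one with the fewest counts. The ratio of CDC25C to CDC25B counts was 1.41 times as high in shDEPDC1B [1.07, 1.88], while CDC25A to CDC25B (1.04 [0.82, 1.33]) and CDC25A to CDC25C (0.74 [0.51, 1.07]) differed by less than counting error. CDC25B made up 94.2% of the CDC25 level per transcript length in shNC and 93.0% in shDEPDC1B, and CDC25C 3.11% and 4.33%.

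WEE1 (chromosome 11, 9573681 to 9593457, plus strand), the nuclear kinase that phosphorylates the inhibitory tyrosine of CDK1, had 514 and 680 counts (26.7 and 37.3 CPM), a log2 ratio of 0.48 [0.32, 0.65], the lowest of the 10. PKMYT1 (chromosome 16, 2968024 to 2980539, minus strand), the membrane-bound kinase of the same loop, had 94 and 159 counts (4.88 and 8.72 CPM), a ratio of 1.79 [1.38, 2.33]. The inhibitory kinases were therefore also higher, and the ratio of PKMYT1 to WEE1 (1.28 times as high [0.96, 1.71]) did not differ beyond counting error.

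PLK1 (chromosome 16, 23677656 to 23690367, plus strand), the polo-like kinase, had 679 and 1108 counts (35.2 and 60.7 CPM), a ratio of 1.72 [1.57, 1.90]. Its count ratio to CDK1 was 1.15 times as high in shDEPDC1B [1.01, 1.31].

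CDK1, PLK1 and the CDC25s were set against WEE1 in 5 ratios. WEE1 had the lowest log2 ratio of the genes of the switch (0.48), so ratios over it lean upward. Of these genes only CDK1 was also set against PKMYT1, which was at 0.84. CDC25C to WEE1 was 1.61 times as high in shDEPDC1B [1.19, 2.19], PLK1 to WEE1 1.23 times [1.06, 1.44] and CDC25B to WEE1 1.14 times [1.01, 1.29], whereas CDK1 to WEE1 (1.07 [0.93, 1.24]) and CDC25A to WEE1 (1.19 [0.91, 1.55]) differed by less than counting error, as did CDK1 to PKMYT1 (0.84 [0.63, 1.11]). In all 14 ratios between genes were computed, the intervals are not adjusted for that number, and 7 exclude equality. After a fit on transcript length and GC content was subtracted, PLK1 to WEE1 was at 0.87, CDC25B to WEE1 at 0.90 and PLK1 to CDK1 at 0.90, on the other side of equality, while CDC25C to WEE1 was at 1.30 and CCNB2 to CCNB1 at 1.43. No interval was computed for the ratios after the fit. They therefore give a side of equality and not a difference beyond counting error.

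**Figure D3:**
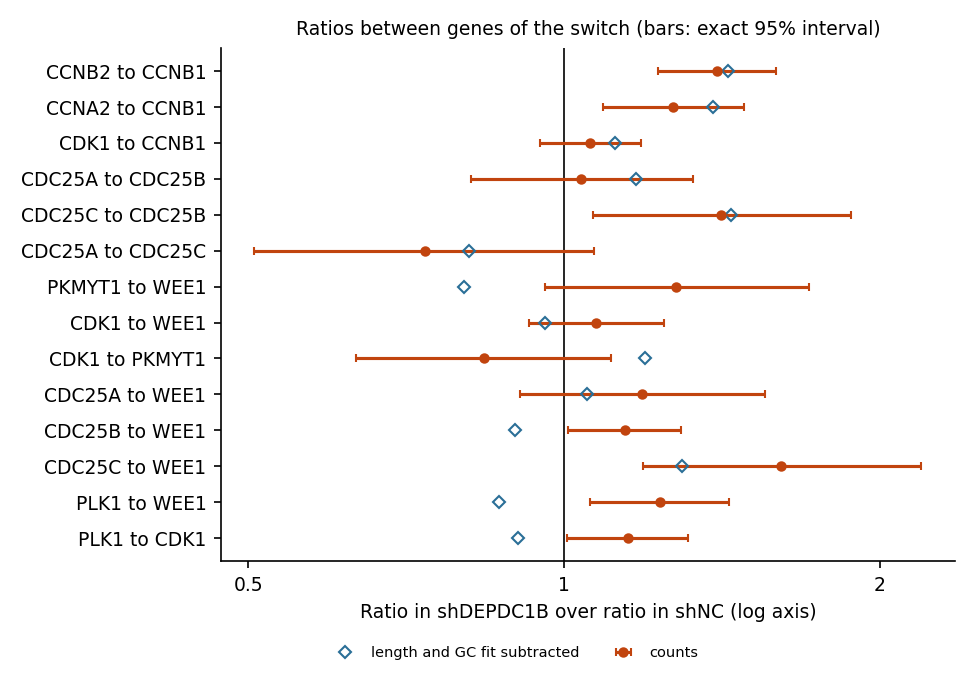
Ratio of 2 genes' counts in shDEPDC1B divided by the same ratio in shNC (orange, exact 95% conditional intervals, log axis), for 14 pairs, with the value after the length and GC fit (blue diamonds). The points of CCNB2 to CCNB1 (1.40) and CDC25C to WEE1 (1.61) stand to the right of 1 by both, and PLK1 to WEE1 (1.23) moves to 0.87. No interval was computed for the diamonds.

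Levels per transcript length put CDC25B first in shNC at 56.8 CPM per kilobase [55.1, 58.6], then CCNB1 at 39.6, CDK1 at 21.6, PLK1 at 15.8, CCNB2 at 9.99, WEE1 at 7.76 and CCNA2 at 6.01. PKMYT1 (2.11 [1.71, 2.58]), CDC25C (1.88 [1.48, 2.35]) and CDC25A (1.59 [1.31, 1.91]) closed the order, and each of these overlapped its neighbour within counting error. In shDEPDC1B the order of the first 7 was the same, from CDC25B at 90.7 to CCNA2 at 10.8, but WEE1 (10.8 [10.0, 11.7]) and CCNA2 (10.8 [9.93, 11.8]) were no longer apart. CDC25C (4.22 [3.60, 4.92]) and PKMYT1 (3.78 [3.21, 4.41]) stood in the other order, with intervals that overlap, and CDC25A was again last at 2.64. With 2 libraries no likeness of pattern between genes can be measured, so no gene is named as most like these.

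Log2 ratios in these libraries went with transcript length: the Spearman correlation across assessed genes, which are not independent, was -0.51, and length and GC together took up 24.6% of the variance. The 10 genes have annotated transcripts of 1948 (CDK1) to 3783 nucleotides (CDC25A), with a median of 2405.5 against 3403 for all assessed genes. Each gene was above the median of assessed genes in its own decile of transcript length, for example CDK1 at a log2 ratio of 0.59 against 0.45, CCNB1 at 0.50 against 0.32, and CDC25A at 0.73, CDC25B at 0.68 and WEE1 at 0.48 against -0.02. After the fit on length and GC was subtracted, all 10 stayed above 0, from 0.36 [-0.01, 0.75] for PKMYT1, the 1 gene whose interval then held 0, to 1.05 [0.65, 1.46] for CDC25C. The median over all assessed genes with an annotated length was then 0.04. How many of those genes were above 0 after the fit, with or without their intervals, was not counted. At 1.5-fold or more after the fit were 6: CDC25C, CCNB2 (0.98), CCNA2 (0.93), CDC25A (0.75), WEE1 (0.68) and CDK1 (0.62). By the same rule 1684 of the 13013 assessed genes with an annotated length were higher after the fit. PKMYT1, PLK1 (0.47 [0.34, 0.61]) and CDC25B (0.52 [0.47, 0.58]) came below 1.5-fold and WEE1 came above it.

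**Figure D4:**
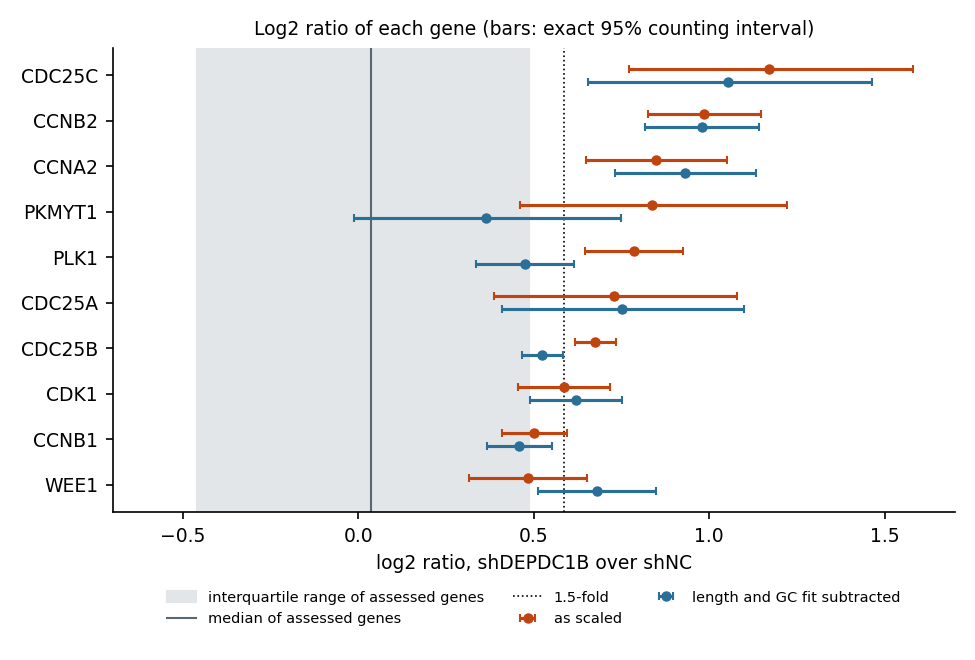
Log2 ratio of shDEPDC1B to shNC for each gene as scaled (orange) and after the length and GC fit (blue), with exact 95% counting intervals, beside the interquartile range of assessed genes (grey) and 1.5-fold (dotted). All 10 points are above 0 by both, PKMYT1 drops from 0.84 to 0.36 and WEE1 goes from 0.48 to 0.68.

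The sources used here do not say whether strand was kept, so reads of overlapping genes may be mixed. CDC25C overlaps FAM53C on the opposite strand, which had 897 and 525 counts and was lower in shDEPDC1B. CCNA2 overlaps EXOSC9 (468 and 446 counts), and PKMYT1 overlaps PAQR4 (264 and 169) and KREMEN2 (47 and 74). PLK1 overlaps ERN2, with 8 counts in each library. The deposited values of CDK1, CDC25A, CDC25C and WEE1 were whole numbers in both libraries, and those of the other 6 had a fraction in at least 1.

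The other genes of the pathway, 62 assessed genes in 8 lists, did not share 1 direction: 15 (24.2%) were at least 1.5-fold higher and 7 (11.3%) at least 1.5-fold lower, against 19.2% and 19.6% of all assessed genes, and the median log2 ratio was 0.19. As scaled, the share of higher genes was thus near that of all genes, and the counts per list as scaled are read against the same background. With the length and GC fit subtracted, an alternative added after the values were seen, 13 were higher and 4 lower. The background for calls after the fit is 1684 higher and 1750 lower of the 13013 assessed genes with an annotated length. Of 6 partners and activating kinase subunits of CDK1, CKS2, a small subunit that docks CDK1 on its substrates (1.23 [1.10, 1.37]), and CCNH, the cyclin of the kinase that phosphorylates the CDK1 activation loop (0.62 [0.46, 0.77]), were higher, and none was at least 1.5-fold lower. That kinase itself, CDK7, was at 0.21, its assembly subunit MNAT1 at 0.50, and CDK2 at 0.01. After the fit MNAT1 (0.67) passed 1.5-fold higher and CKS1B, the other small subunit (-0.36 before), 1.5-fold lower (-0.85). No activator of PLK1, of 3, passed 1.5-fold: the kinase AURKA was at -0.15 [-0.27, -0.03], its cofactor BORA at 0.32 [-0.15, 0.79] and TPX2 at 0.31 [0.22, 0.40].

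The Greatwall kinase MASTL, which shuts off the phosphatase PP2A-B55 that opposes CDK1, was at -0.03 [-0.22, 0.17]. Of the 7 genes of that list PPP2R1A, the PP2A scaffold (1.12 [1.07, 1.16]), and ENSA, a Greatwall substrate (0.75), were higher, and ARPP19, the other substrate, was lower (-0.63, and -0.16 once length and GC were fitted). The B55 subunit genes PPP2R2A and PPP2R2D were at 0.44 and 0.51, and after the same fit both passed 1.5-fold, at 0.74 [0.64, 0.84] and 0.64.

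The 12 genes through which checkpoints act on CDC25 and WEE1 had a median of -0.04, with 2 higher and 3 lower. The damage kinases ATM (-1.15 [-1.27, -1.03]) and ATR (-0.94 [-1.07, -0.81]) and the 14-3-3 gene YWHAG (-1.05) were at least 1.5-fold lower, and CHEK2 (0.75) and YWHAE (0.61) higher. CHEK1, which phosphorylates the CDC25s, was at -0.48 [-0.66, -0.29] and CLSPN, its adaptor, at -0.36. ATM and ATR have transcripts of 13147 and 8249 nucleotides, and both stood at -0.36 after that fit, whereas YWHAG was at -0.93 and YWHAE at 0.54, below 1.5-fold.

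Of 7 CDK inhibitor and GADD45 genes, 5 were assessed. CDKN1B (p27, 0.68) and CDKN3, a phosphatase of the CDK activation loop (0.74), were at least 1.5-fold higher, and CDKN1A (p21) was at -0.06 [-0.10, -0.02]. Of 10 genes that carry out or restrain the destruction of cyclins, CDC25A or WEE1, 5 were at least 1.5-fold higher: the APC/C activator CDC20 (0.91), the APC/C conjugating enzymes UBE2C (1.12) and UBE2S (0.77), the APC/C inhibitor FBXO5 (0.71) and cyclin F, CCNF (0.73). FBXW11, an F-box protein that targets WEE1 and CDC25A, was lower (-1.0 [-1.10, -0.90]), and its paralog BTRC was at -0.08. With length and GC fitted, CDKN3 (0.39), CDC20 (0.49), UBE2C (0.58) and UBE2S (0.55) came below 1.5-fold, while FBXO5 (0.75), CCNF (0.69) and CDKN1B (0.64) did not. Past 1.5-fold only with the fit were SKP1, a subunit of the SCF ligase, which went from 0.47 to 1.08 [1.02, 1.13], and GADD45A, from -0.25 to -0.61. The fit took SKP1 at 9474 nucleotides, the length of its longest coding transcript, and the interval does not cover error in that length.

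Of 15 transcription factor genes that act on these promoters, MYBL2 (B-MYB, 0.81 [0.64, 0.97]) and LIN37 (0.79) were at least 1.5-fold higher, and LIN54, the MuvB subunit that contacts the CHR (-0.80 [-1.09, -0.51]), and the pocket protein RBL2 (-0.88) were lower. FOXM1 was at 0.23 [0.05, 0.40], and the NF-Y genes NFYA, NFYB and NFYC were at -0.05, -0.27 and 0.58. With that fit subtracted none of the 15 passed 1.5-fold, with MYBL2 at 0.51, LIN37 at 0.16, LIN54 at -0.32 and RBL2 at -0.58. None of the 4 assessed paralogs of the 10 genes passed 1.5-fold: PLK4 was at 0.57, and at 0.86 [0.56, 1.16] after the fit, which is past it, PLK3 at -0.08, CCNB3 at -0.05 and PLK2 at -0.43. CCNA1 had 0 and 1 counts and PLK5 had 0 in both libraries.

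**Figure D5:**
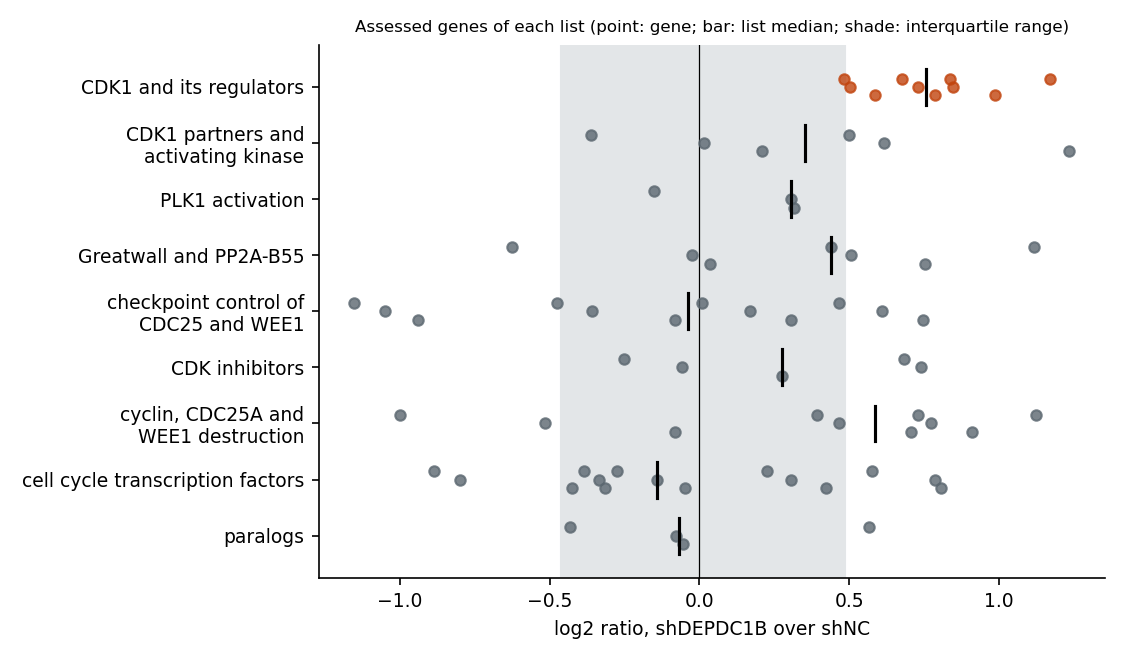
Log2 ratio of each assessed gene (points) by list, with list medians (bars) and the interquartile range of all assessed genes (grey). The 10 genes of the switch (orange, median 0.76) lie between 0.48 and 1.17, while each other list but the 3 PLK1 activators spreads from below -0.20 to above 0.50.

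The libraries hold 18647290 and 18862371 counts. Of 8 epithelial and A549 markers 2 were at least 1.5-fold higher, EPCAM (37 and 65 counts, log2 ratio 0.89) and AKR1C1 (0.62), none was lower by that much, and the median was 0.25. AKR1B10 was at 0.55, and the keratins KRT8 and KRT18, with 97608 to 106007 counts, at 0.05 and 0.06. The leukocyte, fibroblast and endothelial lists summed to 117, 193 and 14 counts in shNC and 190, 221 and 11 in shDEPDC1B, with PTPRC, CD3E and VWF at 0 to 2 counts. Most of the leukocyte sum was CD14 (107 and 175). Most of the fibroblast sum was COL1A1 (99 and 105) and COL3A1 (80 and 105), and most of the endothelial sum was PECAM1 (11 and 6). The part of these marker genes in the ratios was not tested.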

How the data were processed

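The authors deposited 1 table of estimated counts per gene symbol, made with Bowtie2 and RSEM on hg38 per the submitters' processing notes. Versions, annotation, strand handling and RNA selection were not given in the sources used here. These deposited estimated counts were rounded to whole numbers, which gave 18647290 counts in the shNC library and 18862371 in the shDEPDC1B library. RSEM divides reads that match several genes by a model, an error that no interval below holds.

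Libraries were scaled by TMM (edgeR 4.0.16, R 4.3.3). Since a group is 1 library, no test was run and there are no p-values. Each ratio between the libraries carries an exact Clopper-Pearson 95% interval. Ratios between genes were given the exact conditional interval of the odds ratio (SciPy 1.17.1). With 1 library per group, the intervals cover counting error alone. Reads carry no molecular identifiers, so duplicate reads cannot be told from separate molecules. The intervals may thus be too narrow even for counting error. A gene was assessed if either library held at least 30 counts.

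Length and GC were taken from each gene's longest protein-coding transcript, or longest transcript where none codes, in GENCODE 29 (93.96% of assessed genes). Promoter windows are from RefSeq (GRCh38.p14), and 8 of the 10 genes matched. Named genes are the 10 genes, DEPDC1B, each pathway list gene at 1.5-fold or more, and pathway genes that act directly on one of the 10. Marker genes, and pathway genes named for their value after the length and GC fit, fall outside that rule and were chosen after their values were seen. The 10 genes and the lists were chosen with earlier results of these data known. The alternatives were library totals, size factors from DESeq2 1.42.0, upper-quartile factors, protein-coding genes alone, a prior count of 2, a fit on length and GC, a loess on expression, and other folds and filters. The steps were run on simulated Poisson counts with known folds set in some genes. Since the intervals assume such counts, this checks the code and cannot show that the intervals hold for these libraries.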

Additional observations from a re-analysis of the deposited data

How the results depend on the processing

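All 10 genes had a log2 ratio above 0 under every alternative run. As first scaled, 7188 of the 13850 assessed genes were above 0, and that number was not counted under the alternatives. The count at 1.5-fold or more was 8, 7 with DESeq2 size factors, upper-quartile factors, protein-coding genes alone or a prior count of 2, and 6 with library totals or after the length and GC fit. CDK1 was not called under the first 4 of these or with library totals. Of all 13850 assessed genes, 2284 were higher with DESeq2 size factors, 2569 with upper-quartile factors and 2481 with protein-coding genes alone. With a prior count of 2 it was 2640, and with library totals 2029. At 2-fold 1 gene was higher, and over all assessed genes 812 were higher and 1243 lower, against 2662 and 2708 at 1.5-fold, and at the loosest threshold, a log2 ratio of 0.32, 4362 were higher and 3984 lower, with all 10 genes higher. With library totals CCNB1 was at 0.41 and CDC25B at 0.58, and higher genes made up 38.8% of all called genes, against 49.6%. With a loess on expression CDC25B was at 0.62. With the length and GC fit subtracted, CDC25B stood at 0.52, WEE1 at 0.68, PKMYT1 at 0.36 and PLK1 at 0.47, and 1684 genes were higher and 1750 lower of 13013. The pathway lists then held 13 higher and 4 lower genes, against 15 and 7. Ratios that turned after it were CDC25B to WEE1 (0.90), PLK1 to WEE1 (0.87) and PLK1 to CDK1 (0.90). PKMYT1 to WEE1 (0.80), CDK1 to PKMYT1 (1.19) and CDK1 to WEE1 (0.96), within counting error before, also crossed equality. The cause was not tested. No paired analysis was possible because each group has 1 library.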

Other observations

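Some close relatives in the pathway lists stood on opposite sides, and these were picked after their values were seen. CKS1B had 1041 and 766 counts, a log2 ratio of -0.36 [-0.50, -0.23], while CKS2, the other small CDK1 subunit, had 620 and 1380 (1.23 [1.10, 1.37]). After the length and GC fit they were at -0.85 and 0.69. ENSA had 3077 and 4906 counts (0.75) and ARPP19 7477 and 4583 (-0.63), and after the fit they were at 0.78 and -0.16. The 14-3-3 genes YWHAE and YWHAG had 5454 and 7877 counts (0.61) and 13554 and 6196 (-1.05), and after the fit they were at 0.54 and -0.93.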
